A study of Mus musculus with 6 samples.

Results

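The genes described here serve RNA polymerase I (Pol I), the enzyme that transcribes the ribosomal DNA, and were read in heads of WT mouse embryos and of embryos with 1 Snrpb allele deleted in neural tissue and neural crest. They were chosen by name: Tcof1, Polr1a, Polr1b, Polr1c, Polr1d, Ubtf, Ddx21, Nolc1, Fbl and Rn45s, the row annotated as the precursor rRNA. All 10 had a row among the 24421 gene symbols of the count table, and all 10 were among the 15584 genes with enough counts to be tested. The rule used their names and no measured value, but the members were chosen with earlier results of these data known.

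Total RNA of embryonic day 9.0 heads was depleted of ribosomal RNA and sequenced in 6 libraries, 3 of WT embryos and 3 of Snrpb ncc+/- mutants, each library made from 2 pooled, somite-matched heads. In the mutants Wnt1-Cre2 recombined 1 floxed allele of Snrpb, the gene of the SmB core protein of the spliceosomal snRNPs, in cells of the neural tube and of the neural crest, so the other cells of the head kept both intact copies. Whether the WT heads carried the Cre or the floxed allele is not given in the sources used here. The labels name C57BL/6 as strain and CD1 beside it, the study's methods describe a mixed background of both, and the labels call the age a post natal day as well as E9.0. Because whole heads were used, fewer cells of a type and less RNA per cell cannot be told apart in any value below.

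Pol I makes a single long transcript from the repeated rDNA, which is cut, methylated and pseudouridylated into most of the rRNAs of the ribosome. Treacle, the product of Tcof1, and Nolc1 are related nucleolar phosphoproteins that tie Pol I to the processing machinery. Heterozygous loss of TCOF1, and mutations of POLR1B, POLR1C or POLR1D, cause Treacher Collins syndrome, in which the bones and ears of the face are underdeveloped, and the neural crest cells that build the face are known for a high demand for ribosomes.

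The promoters of the members were read to see what they share in sequence. RefSeq windows (GRCm38.p6) of 250 bases before to 50 bases after the annotated start were at hand for 7 of the 10 members, all but Tcof1, Fbl and Rn45s. They were searched on both strands for the E-box CACGTG, the letters bound by Myc and its relatives, and for the ETS core CGGAAG, 2 motifs whose matches cannot overlap each other. None of the windows of the 7 members held the E-box, which 7.15% of all 32851 windows hold. The ETS core stood in the windows of 3 of the 7 members, Polr1c, Nolc1 and Ddx21, and in 16.9% of all windows. The first is a count of members and the second a share of windows, and Ubtf alone has 6 windows. The 2 values therefore do not compare directly. In Polr1c it began 41 bases before the start (chr17:46247996-46248295, minus strand) and in Nolc1 13 bases before it (chr19:46075597-46075896, plus strand). In Ddx21 there were 2 copies, 47 and 24 bases before the start and on opposite strands (chr10:62602249-62602548, minus strand). The window of Polr1a (chr6:71908803-71909102, plus strand), like those of Polr1b, Polr1d and the 6 windows of Ubtf, held neither motif. The 3 windows with a match and that of Polr1a, the member with the largest difference between the groups among the protein-coding ones, are given 5′ to 3′, with the ETS core in capitals on either strand.
Polr1c: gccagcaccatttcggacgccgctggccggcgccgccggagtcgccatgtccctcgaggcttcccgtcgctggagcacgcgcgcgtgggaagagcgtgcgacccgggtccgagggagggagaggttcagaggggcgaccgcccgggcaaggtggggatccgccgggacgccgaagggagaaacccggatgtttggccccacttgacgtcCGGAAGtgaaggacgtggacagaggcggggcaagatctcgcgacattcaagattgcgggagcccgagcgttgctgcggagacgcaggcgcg
Nolc1: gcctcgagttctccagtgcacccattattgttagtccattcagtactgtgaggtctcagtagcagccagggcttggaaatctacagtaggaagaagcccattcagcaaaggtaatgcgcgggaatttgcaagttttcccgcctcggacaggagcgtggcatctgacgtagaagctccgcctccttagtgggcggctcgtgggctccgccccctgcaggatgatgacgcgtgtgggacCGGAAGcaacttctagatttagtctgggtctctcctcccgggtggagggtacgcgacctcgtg
Ddx21: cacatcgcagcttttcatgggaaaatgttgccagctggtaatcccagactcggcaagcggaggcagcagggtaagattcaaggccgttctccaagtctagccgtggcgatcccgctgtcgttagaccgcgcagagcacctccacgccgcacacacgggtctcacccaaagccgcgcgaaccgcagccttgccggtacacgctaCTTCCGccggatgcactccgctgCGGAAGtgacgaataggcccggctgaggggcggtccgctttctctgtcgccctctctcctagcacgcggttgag
Polr1a: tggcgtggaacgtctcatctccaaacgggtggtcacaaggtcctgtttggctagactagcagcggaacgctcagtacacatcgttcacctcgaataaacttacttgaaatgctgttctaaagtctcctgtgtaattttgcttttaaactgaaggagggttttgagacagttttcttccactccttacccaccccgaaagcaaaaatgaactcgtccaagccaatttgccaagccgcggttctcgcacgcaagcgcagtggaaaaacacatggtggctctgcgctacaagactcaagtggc
A match of letters is a description and not a binding site, and the windows without one say nothing about the factors.

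No member differed between mutant and WT heads past an adjusted p of 0.05 in edgeR's quasi-likelihood test, and DESeq2 called none of them either. Over all tested genes that edgeR threshold called 1 gene, 0.00642% of those tested, and DESeq2 called 84, or 0.651% of the 12908 genes for which it gave an adjusted p. At an unadjusted p under 0.05 edgeR and DESeq2 each called 1 of the 10 members, Polr1a, which was lower, where edgeR called 8.43% of all genes, 4.34% higher and 4.09% lower, and DESeq2 5.19%. The largest gap among the 9 protein-coding members was the one of Polr1a, whose mutant level was 91.3% of WT, and the widest interval was that of Rn45s, from 79.0% to 129.6% of WT. Of the 10 members 4 had a positive log2 fold change, and the median over the members was -0.02, beside 0.00 over all tested genes.

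Libraries held between 36378803 and 74909774 counts. WT replicate 1 stood apart in cell type markers: its summed markers of visceral endoderm reached 26.8 CPM (counts scaled to the size of each library), against 5.89 to 7.44 CPM in the other 5 libraries, its surface ectoderm markers 265.9 CPM against 363.3 to 372.0 CPM, and its neural markers 739.7 CPM against 595.6 to 632.7 CPM. The summed neural markers did not overlap between the groups, at 608.4 to 739.7 CPM in WT and 595.6 to 608.2 CPM in mutants. Summed neural crest markers overlapped, at 244.9 to 320.1 CPM in WT, lowest in replicate 1, and 269.8 to 298.5 CPM in mutants. The part of these marker differences in the values of the members was not tested. All 6 neural and all 6 neural crest markers had counts in every library. Snrpb stood at 429.9, 438 and 414 CPM in WT and at 436, 412 and 430.3 CPM in mutants, groups that overlapped, so the whole-head level of the targeted gene did not separate them (log2 fold change -0.0036, standard error (SE) 0.04, edgeR adjusted p = 0.990). The deletion takes out internal exons, and the study's results report a shorter Snrpb transcript after it, made there with beta-actin-Cre. A count over the whole gene can therefore include RNA of the deleted allele and is no full check of the deletion.

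The scaffold proteins come first. Tcof1 (mm10, chromosome 18, 60813755 to 60848971, minus strand) had 218, 183 and 194 CPM in WT replicates 1, 2 and 3, and 193, 182 and 194 CPM in mutant replicates 1, 2 and 3. WT replicate 1 was the highest of the 6 and the other 5 lay together, so the groups overlapped. The WT mean was 199 ± 17.7 CPM and the mutant mean 189.6 ± 6.98 CPM (SD, n = 3 each), or 95.5% of WT with a 95% confidence interval (CI) of 86.4% to 105.5% (log2 fold change -0.07, SE 0.06, edgeR adjusted p = 0.807). Without WT replicate 1, the library that stands apart in its markers, the log2 fold change of Tcof1 was 0.00098, and the part of its marker differences in the value was not tested.

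Nolc1, also called Nopp140 (chromosome 19, 46075863 to 46085530, plus strand), one of the members with an ETS core before its start, was almost level. Its WT libraries held 404, 404 and 398 CPM and its mutant libraries 427, 387 and 394 CPM. The mutants spread to both sides of WT, with an SD of 21.5 CPM against 3.60 CPM in WT. The ratio was 100.1% of WT (95% CI 93.4% to 107.2%, log2 fold change 0.0015, SE 0.04, edgeR adjusted p = 0.997).

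Polr1a encodes the largest, catalytic subunit of Pol I. It had 218, 202 and 209.6 CPM in WT, and its mutant values were 181, 188 and 204 CPM. The highest mutant library lay above the lowest WT library, so the groups overlapped by this pair. The WT mean was 209.7 ± 8.13 CPM and the mutant mean 191.4 ± 11.9 CPM (SD, n = 3 each), with a log2 fold change of -0.13 (SE 0.05, 95% CI -0.25 to -0.01). The edgeR p was 0.0344 before adjustment and 0.546 after it. The unadjusted call was lost without WT replicate 1, WT replicate 3, mutant replicate 1 or mutant replicate 2, and the log2 fold change lay between -0.19 and -0.09 with any 1 library left out. A covariate for Y-linked expression averaged 4 genes within each library on a log2 CPM scale. With it in the model the log2 fold change was -0.06. The summed CPM of those genes, given as a description and not used in the model, was 62.8 to 120.0 in WT and 111.0 to 228.3 in mutants. The part of those genes in the value was not tested.

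Polr1b (chromosome 2, 129100995 to 129126594, plus strand) encodes the other large subunit, which shares the active site with Polr1a. Its values were 153, 146 and 139 CPM in WT and 139, 131 and 149 CPM in mutants. Mutant replicate 3 lay above 2 of the 3 WT libraries. The log2 fold change was -0.06 (SE 0.06, edgeR adjusted p = 0.795), or 95.7% of WT with a 95% CI of 87.7% to 104.6%. It was -0.02 without mutant replicate 2, -0.03 without WT replicate 1 and -0.12 without mutant replicate 3.

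Polr1c (chromosome 17, 46243920 to 46248054, minus strand) and Polr1d form the heterodimer on which Pol I is assembled, and Pol III uses the same pair. Polr1c had 135, 141 and 146 CPM in WT and 149, 138 and 151 CPM in mutants, and Polr1d had 88.4, 98.2 and 90.4 CPM in WT and 91.7, 92.1 and 89.8 CPM in mutants. Both overlapped between the groups, and the lowest library of both was WT replicate 1. The log2 fold change was 0.05 for Polr1c (SE 0.05, edgeR adjusted p = 0.792) and -0.02 for Polr1d (SE 0.05, edgeR adjusted p = 0.934). As a share of WT these were 104% (95% CI 96.3% to 112.0%) and 98.7% (95% CI 91.5% to 106.5%). For Polr1c the log2 fold change was 0.02 without WT replicate 1, 0.09 without mutant replicate 2 and 0.13 with the Y-linked level of each library in the model.

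**Figure D1:**
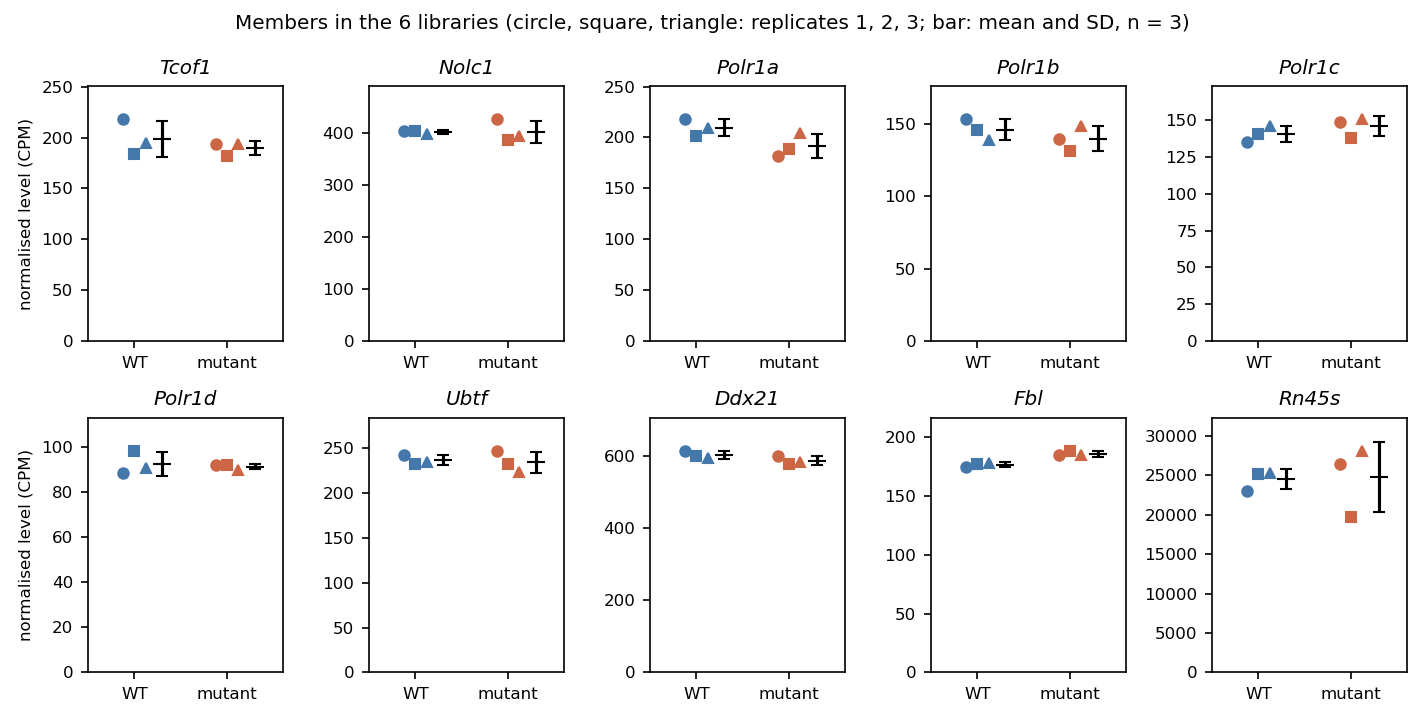
Normalised level (CPM, linear axes from 0, each panel with its own scale) of the 10 members in the 3 WT and 3 mutant libraries; symbols mark replicates 1, 2 and 3, and the bar gives the mean and SD. The groups overlap in every panel but that of Fbl, and WT replicate 1 (blue circle) is the highest library for Tcof1, Polr1a, Polr1b and Ddx21.

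Ubtf, which encodes the factor that keeps rDNA chromatin open for Pol I (chromosome 11, 102304560 to 102319742, minus strand), had 243, 233 and 235 CPM in WT and 247, 232 and 223 CPM in mutants. The WT libraries lay within the range of the mutants. Its level was 99.0% of WT (95% CI 92.1% to 106.3%, log2 fold change -0.02, SE 0.05, edgeR adjusted p = 0.947).

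Ddx21, a DEAD-box RNA helicase that takes part in rRNA transcription and processing (chromosome 10, 62580251 to 62602281, minus strand), was the highest protein-coding member by CPM. It had 613, 598 and 593 CPM in WT and 599, 575 and 583 CPM in mutants. Mutant replicate 1 lay between WT replicates 1 and 2, and the other 2 mutants lay below all WT libraries. The log2 fold change was -0.04 (SE 0.03, edgeR adjusted p = 0.800), and the 95% CI of 92.2% to 102.8% of WT was the narrowest of the 10 members in log2 units.

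Fbl encodes fibrillarin, the methyltransferase of the box C/D snoRNPs that modify the precursor rRNA (chromosome 7, 28169710 to 28179269, plus strand). Its values were 174, 177 and 178 CPM in WT and 185, 188 and 185 CPM in mutants. All mutant libraries lay above all WT libraries, the 1 member of 10 whose groups did not overlap, where 15.2% of all tested genes had groups that did not overlap, 8.32% higher and 6.92% lower in mutants. The means were 176.6 ± 2.13 CPM and 185.9 ± 2.27 CPM (SD, n = 3 each), with a log2 fold change of 0.07 (SE 0.04, 95% CI -0.01 to 0.15). The edgeR p was 0.0665 before and 0.621 after adjustment. Its paralog Fbll1 had 0 to 3 counts in each library.

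Rn45s was the row with the most counts in every library. It took 2.31%, 2.51% and 2.51% of all counts in WT replicates 1, 2 and 3, and 2.64%, 2.00% and 2.81% in mutant replicates 1, 2 and 3. The mutants held both the lowest and the highest library, and the highest was 1.42 times the lowest by CPM, against 1.10 times in WT. Mean levels were 24502 ± 1266 CPM for WT and 24797 ± 4446 CPM for mutants (SD, n = 3 each), with a log2 fold change of 0.02 (SE 0.14, 95% CI -0.34 to 0.37, edgeR adjusted p = 0.986). Leaving out 1 library at a time moved the log2 fold change between -0.09, without mutant replicate 3, and 0.16, without mutant replicate 2, where the row passed the unadjusted threshold (edgeR adjusted p = 0.950). With the Y-linked level in the model it was 0.23 (edgeR adjusted p = 0.999). A two-sided exact permutation test over the 6 libraries gave p = 1 for CPM and p = 0.8 for the share of counts, where 3 libraries against 3 cannot go below 0.1. The libraries had been depleted of rRNA, so the row counts precursor that escaped depletion together with any mature rRNA assigned to it, and these cannot be told apart. It is a level of RNA and not a rate of Pol I transcription. Rn4.5s, a small RNA looked up beside it, had 0 to 2 counts in each library.

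**Figure D2:**
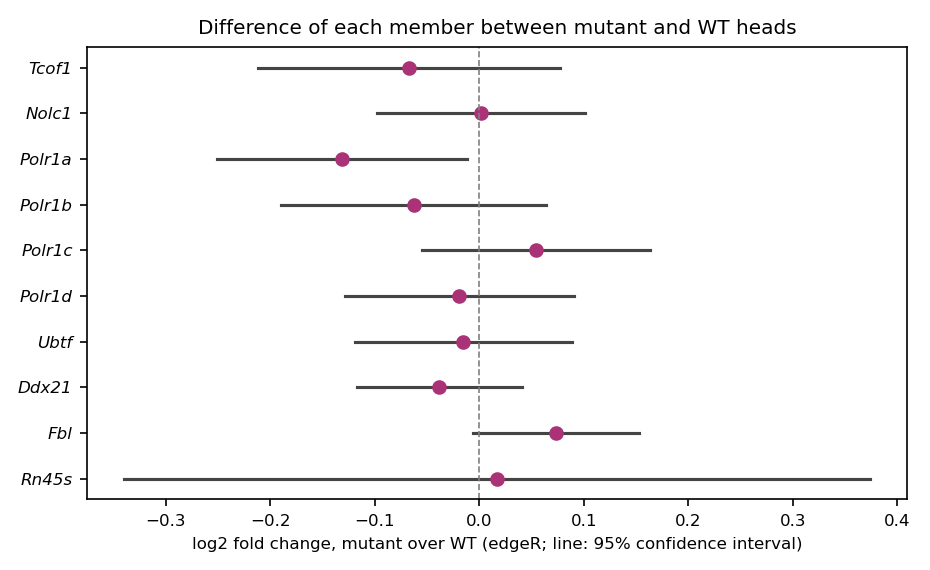
Log2 fold change of each member, mutant over WT (edgeR, points), with its 95% confidence interval (lines) and no difference marked by the dashed line. The interval of Polr1a, -0.25 to -0.01, is the 1 that leaves out 0, before any adjustment for the number of genes tested, and that of Rn45s, -0.34 to 0.37, is the widest.

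Among themselves the protein-coding members differed in level far more than between the groups. Per kilobase of exon (mm10, Gencode M21 exon union), WT means ran from 116.2 CPM per kb for Ddx21 and 101.2 for Nolc1, through 61.7 for Polr1c, 42.0 for Fbl, 37.7 for Tcof1, 36.1 for Ubtf, 30.4 for Polr1d and 25.1 for Polr1b, to 17.7 for Polr1a. In WT the libraries of Fbl, Tcof1 and Ubtf overlapped with their neighbours in this order, and the other neighbours did not. Within the polymerase the order was the same per kilobase of the longest annotated transcript, where Polr1d stood at 68.4 CPM per kb and passed Ubtf and Tcof1. Polr1a lies on chromosome 6 from 71909053 to 71984935, plus strand, and its span overlaps that of Gm26628, on the opposite strand, by 2631 bases. Polr1d, on chromosome 5 from 147077050 to 147111597, overlaps the pseudogene Rps10-ps4 on the opposite strand. These overlaps are of whole gene spans, and shared exon bases were not looked up. Whether the counting used strand is not given in the sources used here, so reads of these partners may be included.

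The members did not move as a block across the 6 libraries. Over the 36 pairs of protein-coding members the median Pearson correlation of log2 CPM was -0.07, and 15 pairs were positive, a description over 6 libraries that share the differences between WT replicate 1 and the rest. Ddx21 and Fbl ran most opposed (r = -0.85). Rn45s followed Polr1c most closely among the members (r = 0.79, 6 libraries) and was near 0 with Polr1d (r = -0.01). WT replicate 1 was the highest library for 4 of the 9 protein-coding members and the lowest for 3, and mutant replicate 2 was the lowest for 4. Searched against 15583 other genes, the patterns most like that of Tcof1 were those of Gltscr1l (r = 0.995), Ubap2 (r = 0.993) and Zfp385a (r = 0.993), and those most like Rn45s were Papd5 (r = 0.977), Coprs (r = 0.973) and E2f3 (r = 0.968). With 6 libraries and that many genes such values are descriptions of these libraries.

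The other genes of rRNA synthesis and processing gave a wider view of the same pathway, with 91 genes in 9 lists, all of them tested. None passed an adjusted p of 0.05 in edgeR, while at an unadjusted p under 0.05 edgeR called 7 higher (7.69%, against 4.34% of all tested genes) and 3 lower (3.30%, against 4.09%). DESeq2 called 3 at its adjusted threshold, Taf1d (adjusted p = 0.0318) and Nop10 (adjusted p = 0.0356) higher and Top2a (adjusted p = 0.0171) lower. The groups did not overlap for 14 of the 91, or 15.4%, against 15.2% of all tested genes. By direction 12 were higher, 13.2% against 8.32%, and 2 lower, 2.20% against 6.92%, and no test was made of these shares. A positive log2 fold change was seen for 61 of the 91, or 67.0%, against 50.2% of all tested genes, with a median of 0.02 against 0.00.

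Of the 4 Pol I subunits outside the members, Polr1e, Polr1f, Polr1g and Polr1h, 3 had log2 fold changes of 0.03 and Polr1h had -0.07, and none passed either threshold in edgeR. The 5 subunits that Pol I shares with Pol II and Pol III ranged from 0.0018 to 0.31 in log2 fold change, the top value being that of Polr2k, at 6.84 to 12.0 CPM in WT and 11.8 to 13.5 CPM in mutants, groups that overlapped (SE 0.19, edgeR adjusted p = 0.693). Polr2k falls outside the naming rule and was named after its values were seen. Of the 11 subunits of Pol III, Polr3f stood out by the naming rule, with 58.6, 63.5 and 68.6 CPM in WT and 73.1, 74.0 and 69.0 CPM in mutants (log2 fold change 0.18, SE 0.06, edgeR adjusted p = 0.480).

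Among 21 factors of Pol I initiation, rDNA chromatin and the transcription-coupled processing complex, 1 was higher and 2 lower at an unadjusted p under 0.05 in edgeR. These were 4.76% and 9.52% of the list, against 4.34% and 4.09% of all tested genes. Taf1d, a subunit of the selectivity factor that brings Pol I to its promoter, had 106, 108 and 97.6 CPM in WT and 133, 131 and 116 CPM in mutants, with no overlap (log2 fold change 0.28, SE 0.06, edgeR adjusted p = 0.309). The span of Taf1d holds snoRNA genes and shares bases with Cep295 and 4931406C07Rik on the other strand. Whether these lie in its exons was not looked up, so its count may hold reads of other RNAs. Top2a, the topoisomerase of dividing cells, which also works with Pol I, had 1063, 1049 and 1160.2 CPM in WT and 929, 921 and 959.5 CPM in mutants, again with no overlap (log2 fold change -0.22, SE 0.05, edgeR adjusted p = 0.309). With the Y-linked level in the model the log2 fold change was 0.13 for Taf1d and -0.13 for Top2a, and both lost the unadjusted call. The other gene of the list that was lower at the unadjusted threshold was Heatr1, a part of the transcription-coupled complex, whose groups overlapped. Heatr1 falls outside the naming rule and was named after its values were seen.

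Of the 50 factors that act on the transcript after Pol I, 6 were called at an unadjusted p under 0.05 in edgeR, 12.0% against 8.43% of all tested genes, and 8 had groups apart, 16.0% against 15.2%. All 3 box C/D partners of Fbl, Nop56, Nop58 and Snu13, had positive log2 fold changes, 0.06 to 0.09 (SE 0.03 to 0.04), and none passed either threshold. Positive values were seen for 67.0% of the 91 pathway genes and for 50.2% of all tested genes. In the box H/ACA core of 4, which carries out pseudouridylation, Nop10 had 85.4, 87.1 and 87.4 CPM in WT and 103, 99.95 and 96.6 CPM in mutants, groups apart (log2 fold change 0.20, SE 0.04, edgeR adjusted p = 0.306). Of 23 abundant nucleolar and small-subunit factors 1 was called at the unadjusted threshold, Nop14 (80.2 ± 1.40 CPM for WT, 86.2 ± 2.07 CPM for mutants, SD, n = 3 each). Of 18 large-subunit assembly factors 3 were higher and 1 lower at that threshold, with Sbds (0.15) and Gtpbp4 (0.09) higher and Ftsj3 (-0.09) lower in log2 fold change among those whose groups did not overlap. With the Y-linked level in the model Sbds stood at 0.05 and lost its call (edgeR adjusted p = 0.999). Polr3f, Nop14, Gtpbp4 and Ftsj3 also lost the unadjusted call in that fit, but their log2 fold changes did not shrink. They were 0.18, 0.10, 0.09 and -0.09 in the main fit, with SEs of 0.06, 0.04, 0.04 and 0.04. With the covariate they were 0.20, 0.11, 0.13 and -0.12, with larger SEs of 0.10, 0.07, 0.06 and 0.06. Nop10 kept its unadjusted call. With libraries left out Taf1d, Top2a and Nop10 kept the unadjusted call in every case. Polr3f lost it without WT replicate 1, mutant replicate 1 or mutant replicate 2, and Sbds without WT replicate 3, mutant replicate 1 or mutant replicate 2. Nop14 and Ftsj3 lost it without WT replicate 2, mutant replicate 2 or mutant replicate 3, and Gtpbp4 without any 1 library other than WT replicate 3. The 5S RNP proteins Rpl5 and Rpl11, which bind Mdm2 when ribosome assembly stalls, each had a log2 fold change of 0.04 and passed neither threshold.

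**Figure D3:**
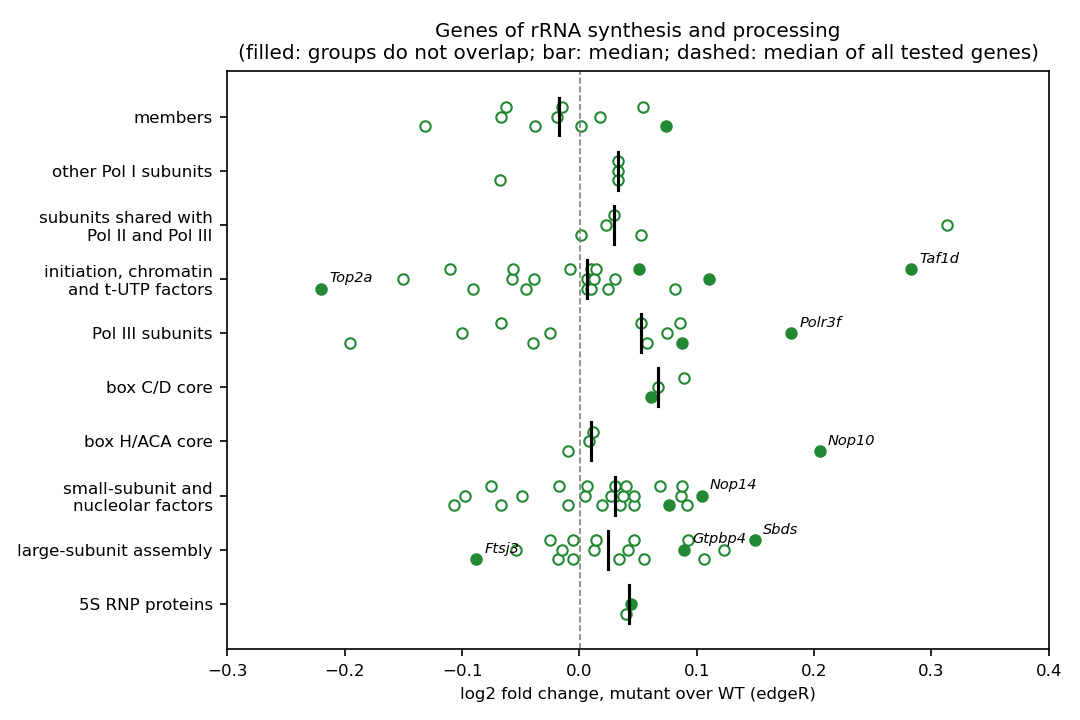
Log2 fold change, mutant over WT (edgeR), of the 10 members and of the 91 other genes by list, with filled points where all mutant libraries lie above, or all below, every WT library, bars at list medians and the dashed line at the median of all tested genes. List medians run from -0.02 for the members to 0.07 for the box C/D core, and named points are those called at an unadjusted p under 0.05 with groups apart.

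Targets of p53, the transcription factor that Mdm2 restrains, are given as the response known to follow from stalled ribosome assembly and from other stresses. The study found more skipped exons in Mdm2 and Mdm4 transcripts of these mutants, and concluded that this raises nuclear p53 and its targets. Exon use was not tested here. All 8 of the listed targets had groups apart and were higher at an unadjusted p under 0.05, and none passed edgeR's adjusted threshold. Of all tested genes 8.32% had groups apart and higher, and 4.34% were higher at that unadjusted p. DESeq2 called 7 of the 8 higher at its adjusted threshold. The list was chosen with results of these libraries known, so its count is no independent evidence of a direction. Cdkn1a, the cell cycle inhibitor p21, had 2.20, 1.00 and 1.22 CPM in WT and 5.35, 7.84 and 8.29 CPM in mutants (log2 fold change 2.32, SE 0.31, edgeR adjusted p = 0.182), and it passed the adjusted threshold with DESeq2 (adjusted p = 4.7e-14) and with edgeR without WT replicate 1 (adjusted p = 0.0198). Mdm2 had a log2 fold change of 0.22 (SE 0.06, edgeR adjusted p = 0.433). In the same libraries the 95% intervals of the 9 protein-coding members lay between 84.1% and 112.0% of WT. The difference between the targets and the members was not tested.

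Exon length ran with the difference. The shortest protein-coding member, Polr1c (2.28 kb of exons), had a positive log2 fold change and the longest, Polr1a (11.9 kb), the most negative. The Spearman correlation across genes between exon length and log2 fold change was -0.67 over the 9 members, -0.29 over the 100 members and other pathway genes with a length, and -0.17 over 14985 tested genes, with the same libraries behind every gene. With the Y-linked level as a covariate the 3 values were -0.47, -0.07 and 0.00033. The part of length in the value of Polr1a was not tested.

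**Figure D4:**
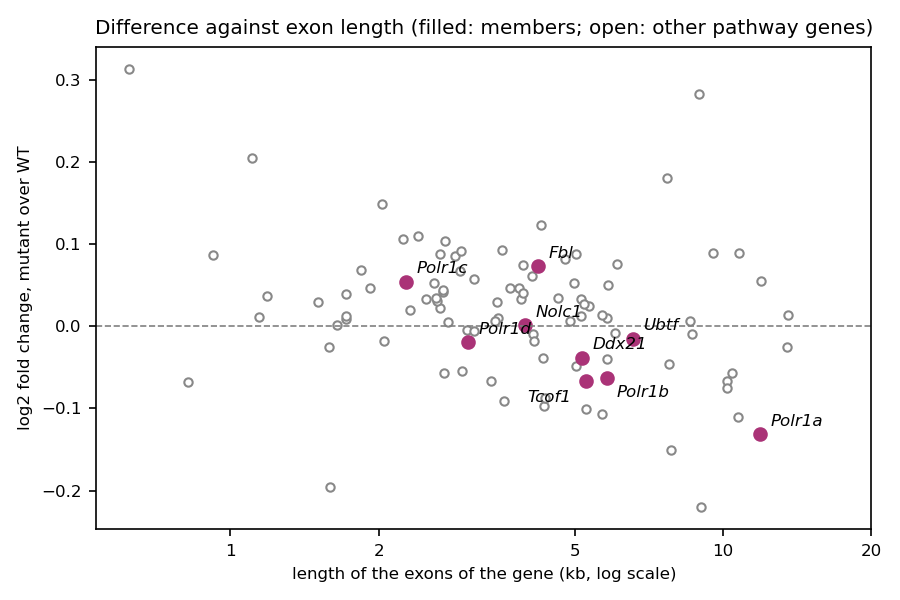
Log2 fold change, mutant over WT (edgeR, vertical axis), against the length of each gene's exons (kb, log axis) for 9 members (filled) and 91 other genes of the pathway (open). Polr1a, the longest member, lies lowest among the members, and Polr1c, the shortest, lies above 0.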

How the data were processed

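RNA of 6 libraries of E9.0 heads, 3 WT and 3 Snrpb ncc+/- mutant, was measured. The authors deposited raw counts per gene symbol, whole numbers without normalization. The submitters' processing notes name Trim Galore, STAR, featureCounts and MultiQC, the study's methods name CutAdapt, STAR and HTSeq, and the strand setting is not given in the sources used here. The members and gene lists were chosen with earlier results of these data known.

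The test was edgeR's (version 4.0.16, in R version 4.3.3): TMM, filterByExpr by genotype, robust quasi-likelihood, two-sided, without covariates, with Benjamini-Hochberg adjustment over 15584 genes and a threshold of 0.05. Genes left out numbered 8837. SE was taken from the log2 fold change and F statistic. CPM used TMM library sizes and correlations log2 CPM with a prior count of 2. Replicates are separate pools, so p-values measure the spread between pools. DESeq2 (version 1.42.0), the study's tool, other scalings and filters, covariates and left-out libraries were alternatives. Both tools were tested on simulated data. Named genes are the members, Snrpb, Cdkn1a, Mdm2, rRNA rows, the 3 genes most correlated with Tcof1 and with Rn45s, and in each pathway list at most 3 genes with an unadjusted p under 0.05 and groups apart. Heatr1 and Polr2k were named outside this rule after their values were seen, and some short lists were named in full. Lengths come from Gencode M21 on mm10. Figures used matplotlib (version 3.10.9) and Python (version 3.11.15).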

Additional observations from a re-analysis of the deposited data

How the results depend on the processing

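For the 9 protein-coding members, 15 alternatives gave 135 log2 fold changes, of which 125 kept their direction and none passed an adjusted p of 0.05 (lowest 0.380). Nolc1, near 0, turned to -0.0029 with DESeq2, -0.00098 with DESeq2 size factors, -0.0024 without rRNA rows and -0.0053 with the Y-linked covariate. Leaving out 1 library at a time gave -0.043 to 0.029 for Nolc1, -0.12 to 0.00098 for Tcof1, -0.053 to 0.029 for Polr1d, -0.056 to 0.013 for Ubtf, -0.088 to 0.16 for Rn45s and -0.026 to 0.019 for Snrpb, which turned to 0.0074 with library size alone. Polr1a kept its direction (-0.19 to -0.06 over all alternatives) and lost its unadjusted call (0 members lower) with library size alone, with the Y-linked or Rn45s covariate and without WT replicate 1, WT replicate 3, mutant replicate 1 or mutant replicate 2. The members lower at an unadjusted p numbered 0 to 1 and those higher 0 to 1 over the left-out libraries, and 1 was higher with library size alone (Fbl) or without mutant replicate 2 (Rn45s). The correlation of length and log2 fold change, an alternative chosen after seeing the data, over all genes turned to 0.00033 with the Y-linked covariate, and left-out libraries gave -0.83 to -0.45 over the members. The cause of these changes was not tested.

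Of the 91 other pathway genes, DESeq2 called 2 higher and 1 lower at its adjusted threshold. At an unadjusted p, DESeq2 gave 4 higher, library size alone 12, the Y-linked covariate 2 higher and 0 lower, and left-out libraries 3 to 9 higher and 2 to 4 lower. Over all genes edgeR's 1 call became 56 higher and 28 lower with DESeq2, 9 higher and 2 lower without a filter and 0 with the Y-linked covariate, and 0 to 6 higher without 1 library. Per kb of the longest transcript the WT levels were 127.4 CPM for Ddx21, 110.6 for Nolc1, 107.0 for Polr1c, 73.3 for Fbl, 68.4 for Polr1d, 50.5 for Ubtf, 43.2 for Tcof1, 36.5 for Polr1b and 22.7 for Polr1a.

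Replicate numbers are shared by the groups in the sample titles only. In the column headers of the deposited counts the mutants are numbered on from the WT libraries, so no number is shared there. The numbers of the titles are used here. Deviations of same-numbered libraries correlated at 0.17, 0.03 and 0.36, and those of differently numbered libraries at -0.25 to 0.09. The main test did not pair libraries by number, and whether the numbers mark shared handling is not known. With a replicate block the members had 0 adjusted calls and 1 lower at an unadjusted p, and the log2 fold change of Polr1a was -0.13. Not every library correlated best with its own number. At 3 pools a group, the 95% intervals of the protein-coding members lay between 84.1% and 112.0% of WT.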
